A study of Mus musculus with 104 samples.

Results

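The genes described here are 31 genes of DNA replication, listed by name for their roles in copying DNA. They were chosen with earlier results of these data known, so the counts of calls are not those of a list blind to the data. The chip measured 30 of them, each by the brightest probe set annotated to that symbol alone, out of 12393 genes measured in all. Chaf1a, a subunit of the chromatin assembly factor that loads histones behind the fork, had no probe set with its symbol alone and is not analysed here. The study took RNA from whole mouse lung from animals exposed to phosgene, a toxic gas that damages the air spaces, and hybridized it to oligonucleotide arrays. Phosgene lungs (labelled CG, 32 mg) were compared with air lungs at times labelled 0.5, 1, 4, 8, 12, 24, 48 and 72, and with untreated lungs. The untreated lungs are labelled None, with a time of 0. Each group held 3 lungs, except the air group at 48 h with 4, which gave 52 lungs on 104 chips, 2 chips per lung. The labels give no unit for the times, a mass alone for the phosgene, and no strain, sex or age, so reading the times as hours rests on knowledge of the study.

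DNA is copied once in each division cycle, during S phase. Before S phase, licensing factors load the MCM helicase onto origins. Cyclin E and its kinase then help to fire the origins, and the helicase opens the helix for the polymerases, which are held on DNA by a sliding clamp. Most of these genes are transcribed in cells that are entering S phase, where E2F transcription factors are known to act, and they are at low levels in resting cells. Most cells of an adult lung are resting.

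The label of lung was checked against markers: the summed intensity of 6 markers of alveolar type 2 cells, which make surfactant, ran from 20624 to 26012 in phosgene lungs and from 17484 to 21349 in air lungs at 48 h. The median intensity of a chip lay between 68.2 and 90.1 after the authors' scaling. The labels do not say that a numbered lung is 1 animal, so each p-value describes the spread between numbered lungs, which may be partly technical. Of the air lungs, 1 of 3 at 8 h, 2 of 4 at 48 h and 2 of 3 at 72 h carry numbers that stand apart from those of the other air lungs. In the air group at 1 h, replicate 1 held a summed intensity of developing lymphocyte markers of 1056 and of fat markers of 1248, the highest of all 52 lungs for both. Without this lung 0 members were called at 1 h, as with it.

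Many of the replication genes were called higher in phosgene than air lungs at 48 and 72 h, and none at earlier times, though a difference of effect between 24 and 48 h passed the test for no member. At 48 h 17 of the 30 members were called higher at an adjusted p under 0.05 and 0 lower, where 2.79% of all 12393 genes were called higher and 2.65% lower (limma, Benjamini-Hochberg over all genes). At 72 h 12 members were called higher and 0 lower, beside 2.18% and 1.9% of all genes. Of the 38 other replication genes described below, a smaller share was called at each of these times. The median log2 change of the members was 0.59 at 48 h and 0.51 at 72 h, where the medians of all genes were -0.02 and 0.01. The changes are differences of log2(intensity + 16), which understates the change of dim genes. All 30 members had a positive change at 48 h and 29 of 30 at 72 h. The 11 members called at both times were Rrm2, Uhrf1, Tk1, Mcm5, Gmnn, Mcm7, Cdt1, Pcna, Rfc5, Mcm4 and Pole. Cdc6, Cdc45, Rrm1, Ccne2, Pola1 and Lig1 were called at 48 h alone, and Rfc4 at 72 h alone. In RNA of whole lung, more cells in S phase and more RNA of these genes per cell cannot be told apart.

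**Figure D1:**
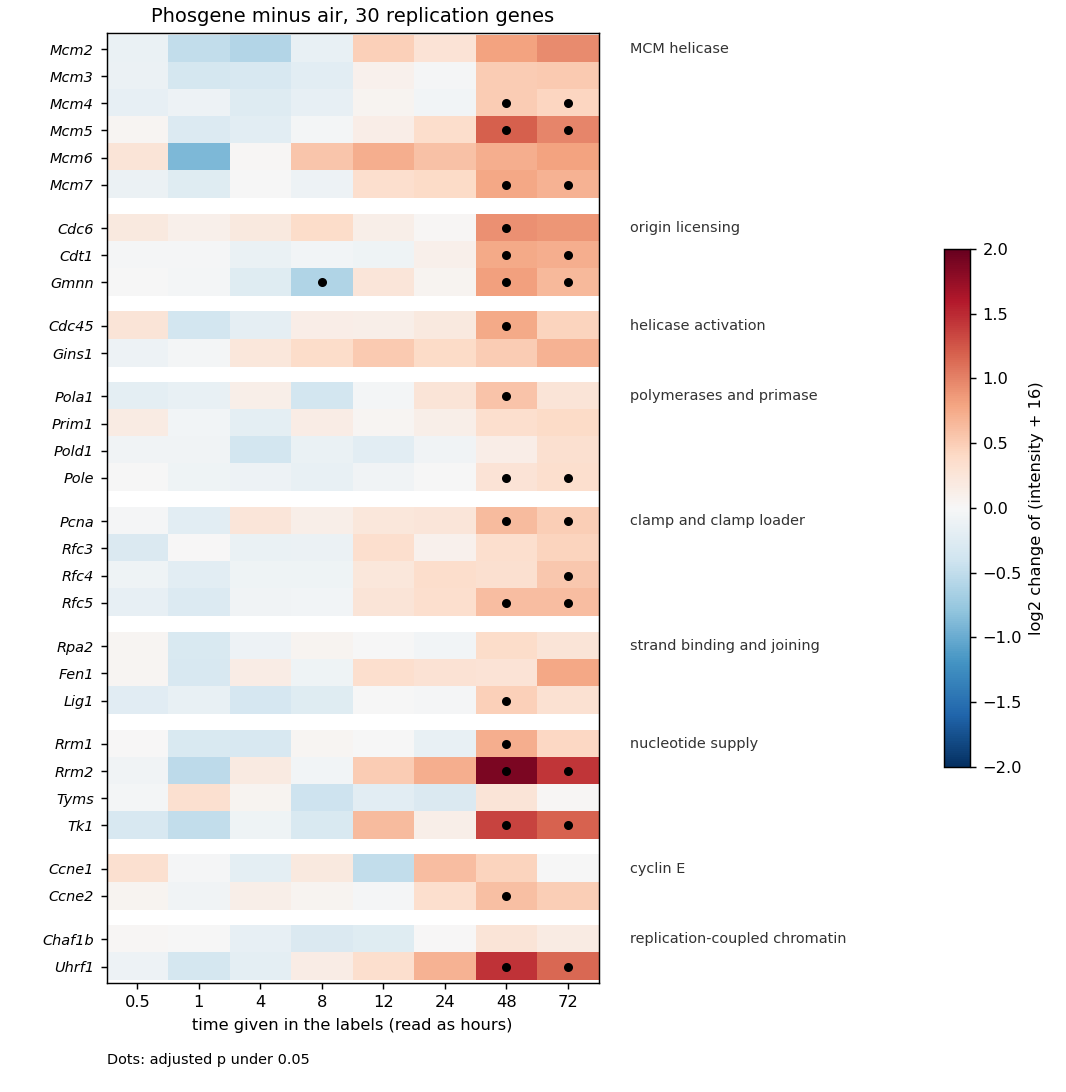
Phosgene minus air difference of each of 30 replication genes (rows, grouped by role) at each of the 8 times (columns), as the log2 change of intensity + 16, with red for higher and blue for lower in phosgene lungs. Black dots mark the 17 calls at 48 h, the 12 calls at 72 h and the 1 call at 8 h.

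In single lungs the same pattern was seen without a fit. For each lung, the median over the 30 members of the log2 level minus that member's mean in untreated lungs was taken. It was 0.55, 0.27 and 0.47 in the phosgene lungs at 48 h, against -0.17, -0.25, -0.0019 and -0.24 in the air lungs. At 72 h it was 0.32, 0.40 and 0.54 in phosgene lungs, against -0.18, -0.02 and -0.24 in air lungs. Every phosgene lung of these times lay above every air lung of any time, whose highest value was 0.16 in replicate 1 at 1 h. The phosgene lungs at 24 h, from -0.14 to 0.04, lay above the air lungs of that time, from -0.27 to -0.22, but within the range of the air lungs of other times.

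**Figure D2:**
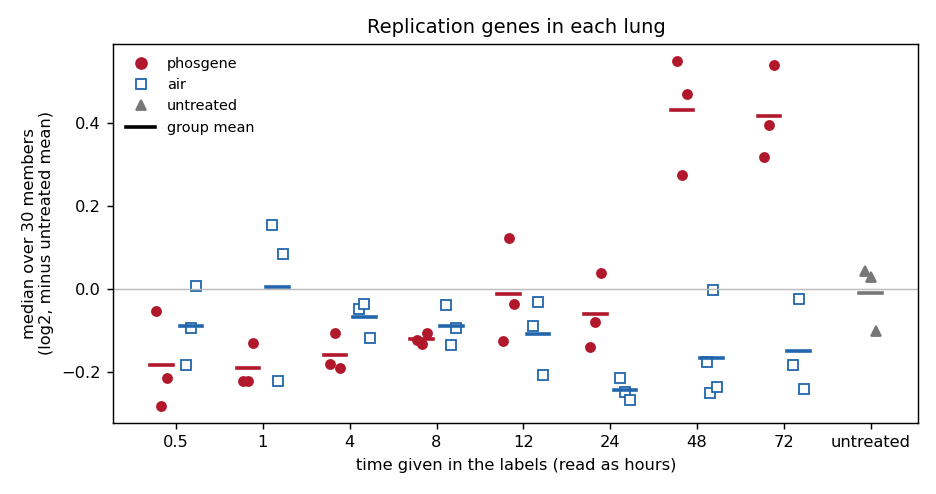
Median over the 30 members in each lung (log2 level minus the mean of each member in untreated lungs) at each time, with phosgene lungs as filled circles, air lungs as open squares, untreated lungs as triangles and group means as bars. The 6 phosgene lungs of 48 and 72 h lie between 0.27 and 0.55, above all other lungs.

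The largest change of any member at 48 and at 72 h was that of Rrm2, of the nucleotide supply genes. Rrm2 encodes a small subunit of ribonucleotide reductase, the enzyme that makes deoxyribonucleotides. Its intensity was 397, 232 and 369 in phosgene lungs at 48 h, against 54.5, 59.1, 106 and 96.7 in air lungs. At 72 h it was 188, 266 and 334 in phosgene lungs and 68.1, 107 and 84.2 in air lungs. The groups did not overlap at either time, and all 6 phosgene lungs were above the highest of the 28 control lungs of all times (166, an air lung at 1 h). The log2 change of Rrm2 was 1.88 ± 0.21 (SE) at 48 h, 3.68-fold (limma, adjusted p = 5.9e-08), and 1.43 ± 0.22 at 72 h, 2.69-fold (adjusted p = 0.000104). The probe set used for Rrm2 is of a type that can share probes with related transcripts, and the changes of its 3 probe sets ran from 1.74 to 1.91 at 48 h.

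Tk1, the thymidine kinase that salvages thymidine for DNA synthesis, came next in this group. Its intensity was 97.4, 92.8 and 94.5 in phosgene lungs at 48 h, against 25.0, 24.1, 48.5 and 17.7 in air lungs. At 72 h it was 89.7, 99.1 and 102 in phosgene lungs and 26.4, 35.3 and 41.5 in air lungs, again without overlap. The log2 changes of Tk1 were 1.35 ± 0.28 at 48 h (limma, adjusted p = 0.00117) and 1.17 ± 0.29 at 72 h (adjusted p = 0.0134). Rrm1, the large subunit of ribonucleotide reductase, had intensities of 145, 243 and 238 in phosgene lungs and 151, 116, 109.8 and 95.9 in air lungs at 48 h. The groups of Rrm1 overlapped there, the log2 change was 0.73 ± 0.22 (adjusted p = 0.0381), and at 72 h it was 0.41 ± 0.23 and not called (adjusted p = 0.41). Tyms, thymidylate synthase, was dim, with group means between 10.2 and 24.6, and had differences of 0.25 at 48 h and 0.03 at 72 h that did not pass the test.

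The MCM helicase has 6 subunits, and 3 of them were called at both times. Mcm5 led, with intensities of 155, 97.4 and 133 in phosgene lungs and 42.5, 45.9, 55.2 and 40.4 in air lungs at 48 h. At 72 h Mcm5 had 117, 134 and 143 in phosgene lungs and 51.7, 67.7 and 57.5 in air lungs, so the groups stood apart at both times. Its log2 changes were 1.20 ± 0.18 (limma, adjusted p = 1.24e-05) and 0.97 ± 0.19 (adjusted p = 0.00109). Mcm7 had 491, 356 and 403 in phosgene lungs, against 236, 196, 262 and 254 in air lungs at 48 h. At 72 h Mcm7 had 342, 415 and 459 in phosgene lungs, against 245, 266 and 222 in air lungs, with log2 changes of 0.77 ± 0.15 (adjusted p = 0.000515) and 0.69 ± 0.16 (adjusted p = 0.0061). The changes of the 4 probe sets of Mcm7 ran from 0.28 to 0.77 at 48 h and from 0.27 to 0.69 at 72 h. Both calls of Mcm7 were lost with its next brightest probe set. Mcm4 changed by 0.51 ± 0.11 at 48 h and 0.43 ± 0.12 at 72 h (adjusted p = 0.00326 and 0.03). Mcm2, Mcm3 and Mcm6 were not called at either time, with differences of 0.81, 0.51 and 0.73 at 48 h and 0.95, 0.52 and 0.81 at 72 h. For Mcm6 and Mcm2 these differences were about as large as that of Mcm7, but their standard errors were 0.33 and 0.35 at 48 h, against 0.15 for Mcm7. Mcm2, for example, had 276, 134 and 253 in phosgene lungs and 102, 83.6, 196 and 98.9 in air lungs at 48 h.

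The 3 licensing genes were all called at 48 h. Cdt1, which loads the helicase onto origins, had intensities of 202, 156 and 231 in phosgene lungs and 107, 96.0, 118 and 113 in air lungs at 48 h. At 72 h Cdt1 had 176, 178 and 237 in phosgene lungs and 112, 125 and 101 in air lungs, with log2 changes of 0.76 ± 0.12 at 48 h (limma, adjusted p = 6.65e-05) and 0.72 ± 0.13 at 72 h (adjusted p = 0.000518). Of the 3 probe sets of Cdt1, 1 changed by -0.02 at 48 h, while the others were positive. Gmnn, geminin, binds Cdt1 and blocks a second round of licensing. Gmnn had 135, 131 and 132 in phosgene lungs, against 67.7, 46.1, 96.4 and 68.8 in air lungs at 48 h, a log2 change of 0.82 ± 0.18 (adjusted p = 0.00295). At 72 h Gmnn had 115, 127 and 137 in phosgene lungs and 69.6, 94.0 and 62.1 in air lungs, a change of 0.65 ± 0.19 (adjusted p = 0.0464). The activator of licensing and its inhibitor were thus both higher. Cdc6, which works with Cdt1, was dim, with 40.1, 25.7 and 46.4 in phosgene lungs and 15.4, 4.0, 14.5 and 16.2 in air lungs at 48 h. Its log2 difference was 0.91 ± 0.25 at 48 h (adjusted p = 0.0229) and 0.89 ± 0.27 at 72 h, just outside the threshold (adjusted p = 0.0503).

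**Figure D3:**
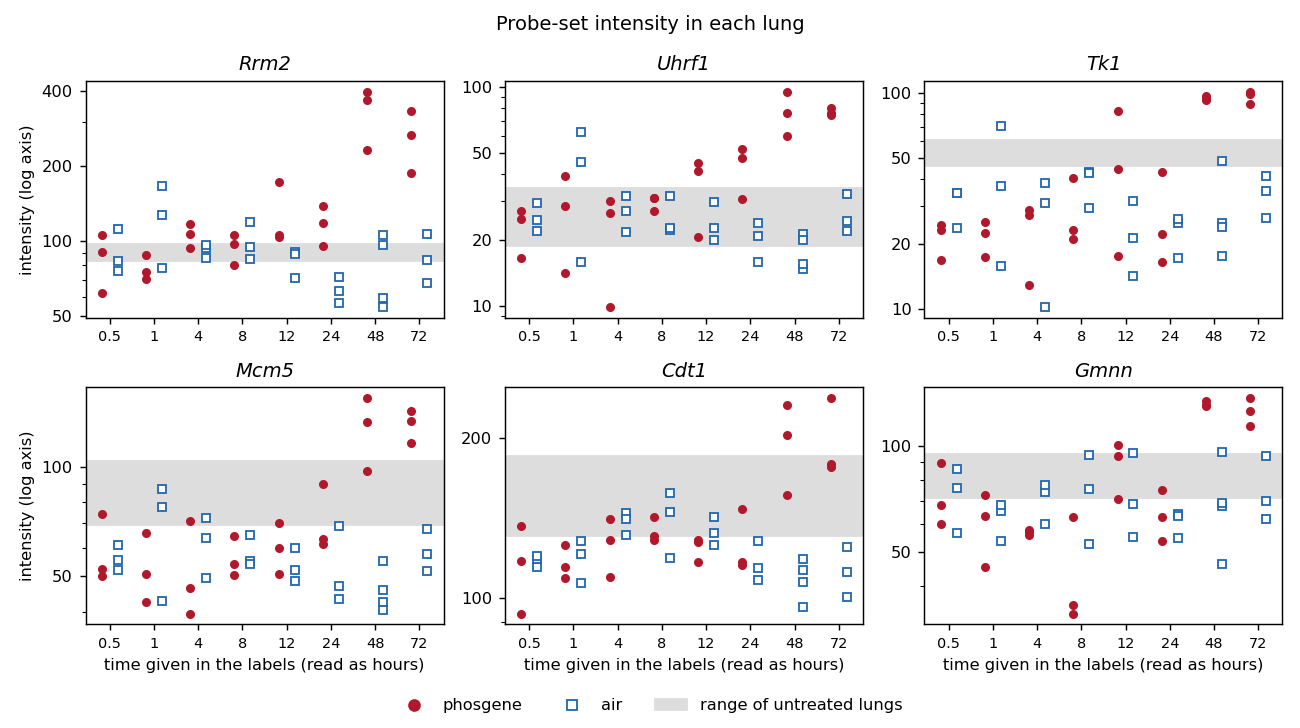
Intensity of Rrm2, Uhrf1, Tk1, Mcm5, Cdt1 and Gmnn in each lung (log axis) at the 8 times, with phosgene lungs as filled circles left of air lungs as open squares, and the range of the 3 untreated lungs as a grey band. At 48 and 72 h the phosgene lungs lie above the air lungs of the same time in every panel.

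Of the 6 genes measured that activate the helicase or synthesize DNA, 3 were called at 48 h and 1 at 72 h. Cdc45, which joins the MCM ring to form the active helicase, had 50.9, 33.5 and 48.6 in phosgene lungs and 26.1, 15.5, 15.1 and 21.7 in air lungs at 48 h. Its log2 difference was 0.76 ± 0.19 (limma, adjusted p = 0.00976), and 0.45 ± 0.20 at 72 h (adjusted p = 0.253), where 1 air lung at 36.9 lay among the phosgene lungs. Gins1, a subunit of the GINS complex that joins with Cdc45, had differences of 0.50 and 0.70 and was not called (adjusted p = 0.145 and 0.0503). Pola1, the catalytic subunit of polymerase alpha, had 66.3, 78.6 and 60.7 in phosgene lungs and 33.0, 30.7, 51.6 and 49.7 in air lungs at 48 h, a change of 0.58 ± 0.17 (adjusted p = 0.0309). Prim1, the primase subunit that starts each fragment, and Pold1, the catalytic subunit of polymerase delta, had differences of 0.34 and 0.14 at 48 h and of 0.38 and 0.31 at 72 h, none of them called. Pole, the catalytic subunit of polymerase epsilon, was called at both times (0.28 ± 0.08 and 0.34 ± 0.09, adjusted p = 0.0285 and 0.0146). The 48 h call of Pole was lost with the chip letter as a replicate block (adjusted p = 0.0693), with median centring (0.0721), with the hybridization day or the chip lot as a term (0.138 and 0.143), and without any of 6 of the 7 lungs. Its 72 h call was lost with the day or the lot as a term (adjusted p = 0.344 and 0.382). Its intensity was only 7.1, 9.1 and 7.2 in phosgene lungs and 5.4, 3.0, 2.8 and 2.9 in air lungs at 48 h, below the 16 added before the log, and no detection call was used here.

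Of the sliding clamp and its 3 loader subunits measured, 2 were called at 48 h and 3 at 72 h. Pcna, the clamp, had intensities of 1098, 1126 and 1098 in phosgene lungs and 746, 564, 743 and 799.6 in air lungs at 48 h. At 72 h Pcna had 967, 1457 and 946 in phosgene lungs, against 657, 822 and 879.7 in air lungs. The groups did not overlap, and the changes were 0.64 ± 0.14 (limma, adjusted p = 0.00249) and 0.49 ± 0.15 (adjusted p = 0.0496). Rfc5, a small subunit of the clamp loader, had 93.6, 79.8 and 97.7 in phosgene lungs and 57.1, 54.4, 56.3 and 46.6 in air lungs at 48 h, a change of 0.61 ± 0.13 (adjusted p = 0.00189). It changed by 0.61 ± 0.14 again at 72 h (adjusted p = 0.00619). Rfc4 was called only at 72 h (0.54 ± 0.15, adjusted p = 0.0237, against 0.33 at 48 h), and Rfc3 at neither time (0.34 and 0.44). The 72 h call of Rfc4 was lost with the hybridization day or the chip lot as a term (adjusted p = 0.164 and 0.228). The difference of the Rfc4 effect between 48 and 72 h was itself not called (0.21 ± 0.20).

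Lig1, the ligase that joins the fragments, was called at 48 h (0.48 ± 0.13, limma, adjusted p = 0.0169) and had a difference of 0.30 at 72 h (adjusted p = 0.265). Fen1, the nuclease that trims the fragments before ligation, had 286, 226 and 262 in phosgene lungs and 190.1, 219.5, 199 and 238 in air lungs at 48 h, which overlap. At 72 h Fen1 had 306, 236 and 444 in phosgene lungs and 193, 183 and 164 in air lungs, which do not, but the difference of 0.77 ± 0.27 was not called (adjusted p = 0.102). The probe set used for Fen1 is also of the type that can share probes, and it changed by 0.27 at 48 h. The other, dimmer probe set of Fen1 changed by 0.98 at 48 h and 0.79 at 72 h. Rpa2, a subunit of the complex that coats single-stranded DNA, had differences of 0.36 and 0.26, not called. Of the cyclins E, which activate the kinase that fires origins, Ccne2 had 49.5, 35.9 and 48.6 in phosgene lungs and 17.5, 18.9, 33.2 and 27.7 in air lungs at 48 h. Its log2 difference was 0.60 ± 0.16 (adjusted p = 0.0158), and 0.50 ± 0.17 at 72 h (adjusted p = 0.0924). Ccne1 had differences of 0.44 and -0.00035, not called.

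Uhrf1, which finds newly copied DNA that carries methyl groups on 1 strand and recruits the maintenance methyltransferase, had the largest member change after Rrm2 at 48 h. Its intensity was 76.3, 59.7 and 95.0 in phosgene lungs and 14.7, 21.3, 15.5 and 20.0 in air lungs at 48 h. At 72 h it was 80.3, 76.2 and 74.1 in phosgene lungs and 21.9, 32.5 and 24.4 in air lungs, without overlap at either time. The log2 changes of Uhrf1 were 1.44 ± 0.22 (limma, adjusted p = 2.08e-05) and 1.14 ± 0.23 (adjusted p = 0.00214). Chaf1b, a histone chaperone subunit, had differences of 0.25 and 0.16 and was not called.

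**Figure D4:**
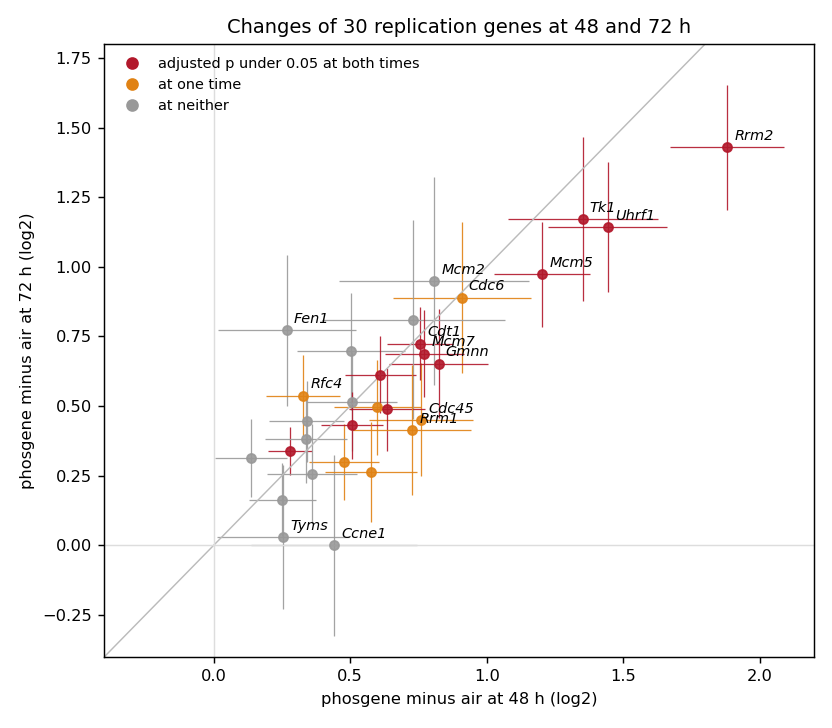
Log2 change (phosgene minus air) of the 30 members at 48 h (x axis) against 72 h (y axis), with bars of 1 SE and the line of equal change. Rrm2, Uhrf1, Tk1 and Mcm5 stand at the upper right and 29 of 30 members lie above 0 on both axes.

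The calls at 48 and 72 h were close in kind but not equally firm. Of the members called at 48 h, 64.7% were called at 72 h, and of those called at 72 h, 91.7% at 48 h. A difference of the phosgene effect between 72 and 48 h was called for 0 of the 30 members (0% of all genes), with 0 at an unadjusted p under 0.05 and a median member difference of -0.09. At 48 h 22 members had every phosgene lung above every air lung, and at 72 h 23 members did, beside 7.25% and 10.1% of all genes. With each lung left out in turn, 10 of the 17 calls at 48 h held whichever lung was missing: Rrm2, Uhrf1, Tk1, Mcm5, Gmnn, Mcm7, Cdt1, Pcna, Rfc5 and Mcm4. At 72 h 4 of the 12 did, namely Rrm2, Uhrf1, Mcm5 and Cdt1. The count at 48 h was 11 without phosgene replicate 1 and 11 without phosgene replicate 3. At 72 h it was 6 without air replicate 1, 6 without air replicate 3, 7 without phosgene replicate 2 and 6 without phosgene replicate 3. Without the air lungs whose numbers stand apart, a setting chosen after the data were seen, 13 members were called at 48 h and 1 at 72 h, where 1 air lung was left. The median member change there was 0.58 at 48 h and 0.64 at 72 h.

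On each hybridization day shared by both groups at 48 or 72 h, the median member difference was positive, though each day held few chips. Phosgene and air chips at 48 h shared 3 days, each with 1 phosgene chip and 1 or 2 air chips. The median member difference on these days was 0.65, 0.43 and 0.46, with 27, 26 and 26 of the 30 members positive. At 72 h they shared 2 days, each with 1 phosgene chip and 1 air chip, with medians of 0.68 and 0.65 and 28 and 26 members positive. With the day as a term, 18 members were called at 48 h and 8 at 72 h. The 72 h calls lost with the day were those of Tk1, Gmnn, Rfc4 and Pole, and those lost with the chip lot were Mcm4, Gmnn, Rfc4 and Pole.

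Most members had a lower mean in air than in untreated lungs at 48 and 72 h, with 1 member called. Set against the 3 untreated lungs, the phosgene lungs at 48 h held 6 members called higher (2.57% of all genes), namely Rrm2, Uhrf1, Ccne2, Pcna, Mcm7 and Rfc5. At 72 h they held 5 (1.61% of all genes), the same without Ccne2. Rrm2 changed by 1.67 ± 0.22 in this comparison at 48 h (limma, adjusted p = 3.01e-06) and Uhrf1 by 1.05 ± 0.23 (adjusted p = 0.00338). Mcm5 was not called there, and its untreated lungs had intensities of 104, 102 and 69.3. In air lungs at 48 h Mcm5 was lower than in untreated lungs by a log2 change of -0.79 ± 0.18 (adjusted p = 0.0366), the 1 member called lower in air, beside 0.105% of all genes. The median member change in air against untreated lungs at 48 h was -0.16, with 4 of 30 members positive. At 0.5, 1, 4, 8, 12, 24 and 72 h, 0 members were called between air and untreated lungs in limma's test, beside 0.347%, 0.178%, 0%, 0.00807%, 1.56%, 0.161% and 0.153% of all genes. At unadjusted p under 0.05 these counts were 4, 1, 3, 3, 7, 8 and 2. The comparisons with air and with untreated lungs share the phosgene lungs. Over the 8 air groups, 0 members changed with time (F test, 0.96% of all genes).

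Before 48 h 1 member was called, at 8 h. At 0.5, 1, 4, 12 and 24 h, 0 of the 30 members were called in either direction by limma, beside 0.29%, 0.839%, 5.54%, 1.86% and 1.99% of all genes. At unadjusted p under 0.05 the counts were 0, 2, 3, 6 and 5. The median member change was -0.04, -0.18, -0.12, 0.12 and 0.16 at these times, with 11, 3, 9, 19 and 22 of 30 members positive. At 1 h Rrm2 had 70.8, 74.9 and 87.8 in phosgene lungs, against 166, 78.1 and 128 in air lungs, of which replicates 1 and 3 were high. At 8 h 1 member was called, beside 8.77% of all genes in either direction and 4.83% lower. It was Gmnn, at 35.2, 33.3 and 62.8 in phosgene lungs and 52.5, 75.8 and 94.5 in air lungs, a change of -0.60 ± 0.19 (adjusted p = 0.0446). The groups of Gmnn overlapped, and the call was lost without any of 4 of the 6 lungs. Against untreated lungs, Gmnn was lower at 8 h (-0.81 ± 0.19, adjusted p = 0.00389), and Mcm5 was lower at 1, 4 and 8 h (-0.64, -0.67 and -0.56). That made 1, 1 and 2 members lower at those times, beside 2%, 3.27% and 6.51% of all genes.

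Rrm2 and Uhrf1 had the largest differences at 24 h, neither called. Rrm2 had 118, 95.6 and 138 in phosgene lungs and 63.0, 72.0 and 56.7 in air lungs, a difference of 0.73 ± 0.22 (limma, adjusted p = 0.0855). Uhrf1 had 52.03, 30.8 and 47.5 in phosgene lungs and 23.9, 15.9 and 20.8 in air lungs, a difference of 0.70 ± 0.23 (adjusted p = 0.124). For both genes the groups did not overlap at 24 h.

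Tests of the change in effect gave a difference over the whole course but not between neighbouring times. Between the late times (24, 48 and 72 h) and the early times (0.5, 1 and 4 h), the phosgene effect was higher for 18 members and lower for 0, beside 2.73% of all genes higher. Rrm2 (1.49 ± 0.18), Uhrf1 (1.31 ± 0.19), Tk1 (1.18 ± 0.24) and Mcm2 (1.08 ± 0.30) differed most (limma, adjusted p = 2.23e-07, 6.67e-06, 0.00102 and 0.0252). Mcm2, Mcm3 and Rfc3 were called in this contrast though not at any single time. Over all 8 times the effect varied for 11 members by the F test, beside 4.02% of all genes: Mcm4, Mcm5, Mcm7, Rrm2, Tk1, Rfc5, Lig1, Uhrf1, Gmnn, Cdt1 and Pole. Between 24 and 48 h the median member effect differed by 0.41, with 27 of 30 members positive, but 0 members were called (0.0323% of all genes), and 13 had an unadjusted p under 0.05. Tk1 (1.23 ± 0.40) and Rrm2 (1.15 ± 0.31) differed most there, with adjusted p of 0.518 and 0.286.

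To show what the leading members share in sequence, promoter windows were read from RefSeq (GRCm38.p6), from 250 bases before to 50 after each annotated start, on the strand of the gene. RefSeq windows were found for 26 of the 31 genes, and Gmnn, Pole, Gins1, Ccne2 and Mcm4 had none. The windows were searched on both strands for the E2F consensus, spelled as TTTCCCGC, TTTCGCGC, TTTGCCGC or TTTGGCGC, and for the box CCAAT, which the factor NF-Y is known to bind. The 6 windows printed are those of the members of largest change at 48 h among those called at both times and with a window, with the start that holds an E2F match where a gene has 2 starts. Capitals mark every match on either strand, 5′ to 3′.
Rrm2 (chr12:24708004-24708303, plus strand): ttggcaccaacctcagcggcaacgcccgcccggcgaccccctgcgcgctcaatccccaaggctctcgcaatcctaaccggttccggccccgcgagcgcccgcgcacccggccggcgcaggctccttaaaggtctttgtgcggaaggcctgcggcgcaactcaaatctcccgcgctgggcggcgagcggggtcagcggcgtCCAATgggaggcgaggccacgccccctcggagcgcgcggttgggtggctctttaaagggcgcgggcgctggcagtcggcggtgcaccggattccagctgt
Uhrf1 (chr17:56304063-56304362, plus strand): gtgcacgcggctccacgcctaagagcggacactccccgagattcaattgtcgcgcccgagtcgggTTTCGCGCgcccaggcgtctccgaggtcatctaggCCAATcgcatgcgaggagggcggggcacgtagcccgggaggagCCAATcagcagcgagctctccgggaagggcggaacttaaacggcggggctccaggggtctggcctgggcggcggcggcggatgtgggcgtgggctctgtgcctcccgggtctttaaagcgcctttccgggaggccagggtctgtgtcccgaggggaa
Tk1 (chr11:117825965-117826264, minus strand): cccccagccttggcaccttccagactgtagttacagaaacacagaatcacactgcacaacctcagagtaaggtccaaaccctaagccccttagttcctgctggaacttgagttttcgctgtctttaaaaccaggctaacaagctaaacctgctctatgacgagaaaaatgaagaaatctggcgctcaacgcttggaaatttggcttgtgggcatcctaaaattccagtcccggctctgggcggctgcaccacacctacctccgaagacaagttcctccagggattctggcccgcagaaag
Mcm5 (chr8:75109259-75109558, plus strand): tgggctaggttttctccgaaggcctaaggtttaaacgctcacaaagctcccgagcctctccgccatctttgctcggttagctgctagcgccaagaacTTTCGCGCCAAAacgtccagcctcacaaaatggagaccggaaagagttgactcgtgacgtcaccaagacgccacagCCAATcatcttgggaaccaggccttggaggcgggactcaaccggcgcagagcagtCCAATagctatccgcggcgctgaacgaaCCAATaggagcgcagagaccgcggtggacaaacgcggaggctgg
Mcm7 (chr5:138171834-138172133, minus strand): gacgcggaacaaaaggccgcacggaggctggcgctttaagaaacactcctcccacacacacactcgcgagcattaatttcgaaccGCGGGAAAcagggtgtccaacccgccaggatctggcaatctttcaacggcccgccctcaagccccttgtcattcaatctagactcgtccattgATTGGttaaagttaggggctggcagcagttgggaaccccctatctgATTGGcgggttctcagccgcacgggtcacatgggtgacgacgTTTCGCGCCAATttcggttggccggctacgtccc
Cdt1 (chr8:122567765-122568064, plus strand): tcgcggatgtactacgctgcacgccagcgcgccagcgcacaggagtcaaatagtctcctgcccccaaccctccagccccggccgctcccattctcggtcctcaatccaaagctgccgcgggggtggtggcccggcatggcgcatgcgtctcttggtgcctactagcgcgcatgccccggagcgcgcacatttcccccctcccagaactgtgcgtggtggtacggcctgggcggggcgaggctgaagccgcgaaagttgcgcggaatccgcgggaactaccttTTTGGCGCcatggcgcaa

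An E2F match was found in 11 of the 31 windows of the listed genes (35.48%), against 744 of all 32851 windows (2.26%). The genes with a match were Mcm3, Mcm5, Mcm6, Mcm7, Cdc6, Cdt1, Pola1, Pold1, Lig1, Rfc3 and Uhrf1. In Mcm5 a match on the strand of the gene, TTTCGCGC, overlaps one of another spelling, TTTGGCGC, on the other strand, so that TTTCGCGCCAAA holds both, and Mcm6 holds the reverse complement of this word, TTTGGCGCGAAA. In Mcm7 a match runs into a CCAAT box. Rrm2 and Tk1, of the largest changes, had no match to these letters in their windows. Among genes called at 48 or 72 h, 7 of 14 with a window had a match, and among measured genes called at neither, 4 of 11 did. The CCAAT box was in 17 of 31 windows (54.8%), against 37.4% of all windows. A match is a description of the letters, and binding was not measured.

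**Figure D5:**
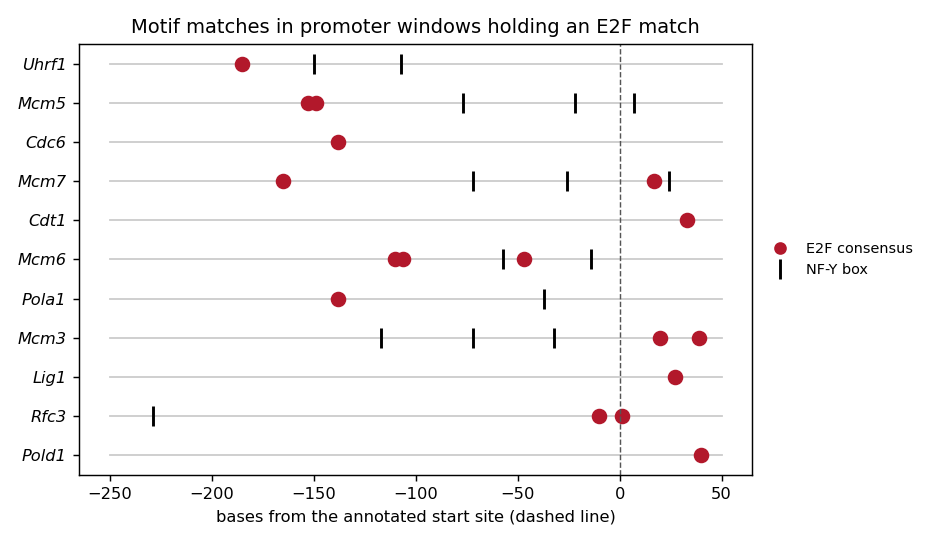
Positions of E2F matches (circles) and of NF-Y boxes (ticks) in the 11 promoter windows that hold an E2F match, in bases from the annotated start site (dashed line), with genes ordered by their change at 48 h from the top. E2F matches lie on either side of the start, and Mcm5 and Mcm6 each hold an overlapping pair.

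Of 38 other replication genes, 4 were called higher at 48 h and 2 at 72 h, with medians of 0.17 at both times. These were Asf1b, a histone chaperone (1.23 ± 0.20 and 0.99 ± 0.22), Hells, a chromatin remodeller (0.87 ± 0.16 and 0.81 ± 0.17), and, at 48 h alone, Dbf4 (0.72 ± 0.19), the activator of the Cdc7 kinase that starts replication, and Tipin (0.41 ± 0.12), of the fork protection complex. Of 23 mitosis genes, 20 were called higher at 48 h and 13 at 72 h, with medians of 1.02 and 0.80. The largest at 48 h were Cdk1 (1.97 ± 0.36), Birc5 (1.96 ± 0.32), Mad2l1 (1.61 ± 0.24), Bub1b (1.57 ± 0.19) and Cdc20 (1.49 ± 0.22), and Mki67, the antigen used to mark dividing cells, changed by 1.42 ± 0.29. Of 20 E2F, cyclin and G1 genes, 2 were called higher at 48 h, Ccna2 (0.73 ± 0.18) and Myc (0.72 ± 0.21), and 1 lower, Ccnd2 (-0.51 ± 0.13). Ccna2 encodes cyclin A2, which is not a cyclin D. At 72 h 0 of the 20 were called.

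Genes of cell cycle arrest also differed between phosgene and air lungs at 8 h. At every time before 48 h, 0 members were called higher, and a link of the arrest genes to the members was not tested. Of 12 kinase inhibitors and arrest genes, 5 were called higher and 1 lower at 8 h, beside 3.94% and 4.83% of all genes. Cdkn1a, the p21 inhibitor of cyclin-dependent kinases, changed by 1.81 ± 0.27, Gadd45a by 0.88 ± 0.19 and Gadd45b by 0.57 ± 0.19, and Cdkn2b, an inhibitor of the cyclin D kinases, by 0.46 ± 0.14. Cdkn2c, another inhibitor of those kinases, changed by -0.98 ± 0.15. At 48 and 72 h 0 of the 12 were called. Myc, a growth factor response gene, was higher at 4 h (2.03 ± 0.22), 8 h (2.18 ± 0.22), 24 h (1.13 ± 0.22) and 48 h.

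Markers of other cells also differed between phosgene and air lungs, some of them at earlier times than the members. Of 12 macrophage markers, 3 were called higher at 48 h and 5 at 72 h, among them Cd68 (0.86 ± 0.16 and 1.11 ± 0.18) and Msr1 (0.96 ± 0.15 and 0.57 ± 0.16). Their summed intensity was 9106 to 9497 in phosgene lungs and 7473 to 8957 in air lungs at 48 h, and 9432 to 10931 against 6857 to 9635 at 72 h. Of 8 endothelial markers, 5 were called lower at 48 h and 4 at 72 h, with sums of 5350 to 6310 in phosgene lungs and 8457 to 9639 in air lungs at 48 h, and 5283 to 6448 against 8206 to 9878 at 72 h. The endothelial sums were also apart at 4 h (7415 to 7508 in phosgene lungs, 9119 to 11130 in air lungs), 12 h (6499.5 to 7606 against 9409.8 to 9584) and 24 h (6890.1 to 7579.6 against 9084 to 9429). At 4, 12 and 24 h, 3, 1 and 1 of the 8 were called lower and 0 members were called. At 8 h the endothelial sums overlapped, at 6366 to 8516 in phosgene lungs and 8337 to 10018 in air lungs. Cdh5, the endothelial cadherin, changed by -0.82 ± 0.18 at 48 h. Of 6 alveolar type 2 markers, 1 was called higher at 48 h and 0 at 72 h. Of 11 neutrophil markers, 0 were called at 48 h and 1 at 72 h, though their sums of 1483 to 1604 in phosgene lungs lay above 787 to 1103 in air lungs at 48 h. The neutrophil sums were highest at 8 h, at 1516 to 4727 in phosgene lungs and 888 to 985 in air lungs, with 4 of the 11 called higher. Of 7 red cell precursor markers 2 were called lower at 48 h and 1 at 72 h, with sums of 419 to 544 in phosgene lungs and 786 to 1034 in air lungs at 48 h, and 333 to 368 against 843 to 904 at 72 h. Of the 9 developing lymphocyte, 6 T cell and 6 B cell markers, whose cells can divide, 0 were called at either time, with developing lymphocyte sums of 159 to 203 in phosgene lungs and 174 to 235 in air lungs at 48 h. B cell sums were lower in phosgene lungs at 48 h (349 to 410 against 415 to 535) and overlapped at 72 h (457 to 585 against 403 to 528). T cell sums overlapped at 48 h (232 to 273 against 254 to 307) and were lower in phosgene lungs at 72 h (233 to 268 against 285 to 319). No marker of these lists was at 0 in a whole group. The part of these cells in the change of the replication genes was not tested.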

How the data were processed

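The members and gene lists were chosen with earlier results of these data known. The deposited values are linear probe-set intensities, which the authors scaled per chip to a common trimmed mean (150.03 to 150.04 when recomputed with 2% of values removed at each end). The software behind these intensities is not given in the sources used here. Settings deposited for each chip, text of the unit other, gave 11 hybridization days and 3 chip lots, for 97 and 95 of 104 chips.

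Probe sets with 1 symbol (20380 of 22690) were reduced to the brightest per gene (12393 genes). From each intensity, log2(intensity + 16) was taken, the 2 chips of a lung were averaged, and 17 group means were fitted together with limma 3.58.1 (eBayes with trend, R 4.3.3). Tests were 2-sided, with Benjamini-Hochberg adjustment over all genes of a comparison. The code was tested on simulated data. Sequences and figures were made with Python 3.11.15, pandas 2.3.3, numpy 2.4.6 and matplotlib 3.10.9. The number of lungs limits the precision, and no dim gene was filtered out.

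All measured members are named. Values per lung are given for the 6 called members of largest change at a time and for the leading member of each role at 48 or 72 h, and for a few others (Rrm1, Mcm2, Pole, and values at 1 and 24 h) chosen after their values were seen. Up to 5 called genes per time come from other lists (Mki67 and Gadd45b were added after their values were seen) and up to 3 from markers. Alternatives changed the offset, normalization, dim filter, probe set, control, lungs and batch terms. Chip letters, as a replicate block with lung as a random block (correlation 0.283), come from the descriptions, and for 56 chips the title gives the other letter, so they pair no lungs. Per-sample columns of other series numbered 0.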

Additional observations from a re-analysis of the deposited data

Results flagged for a closer look

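In the air group at 48 h, the only group of 4 lungs, 3 of 30 members had 1 lung far from the others by Dixon's test, whose chance rate is about 1 in 20 groups. Cdc6 was low in replicate 2 (gap over range 0.884), at an intensity of 4.0 against 14.5 to 16.2 in the others. Without that lung Cdc6 was not called at 48 h. Lig1 was high in replicate 2 (0.964), at 125.6 against 95.8 to 96.7. Pole was high in replicate 1 (0.917), at 5.4 against 2.8 to 3.0. The phosgene effect differed between late and early times for 18 members, and over the 8 times for 11 members, by the tests of the difference itself.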

How the results depend on the processing

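No called member changed sign in the settings with values per gene (the one without the air lungs numbered apart gave counts alone). At 48 h the count of members called higher was 16 to 19 under 8 other settings of offset, normalization, probe set, replicate block and batch terms, and 12 from the lungs of that time alone. It was 7 with dim genes left out, which kept 12 of the 30 members, 6 with untreated lungs as control, and 11 to 15 with 1 lung left out. At 72 h it was 8 to 14 under those 8 settings, 5 with dim genes left out, 4 from the lungs of that time alone, 5 with untreated lungs, 1 without the air lungs numbered apart, and 6 to 13 with 1 lung left out. With dim genes left out, the change over time was called for 5 and the late against early change for 8 of the 12 members kept. Over all 30 members these counts were 11 and 18. Of the 12 calls at 48 or 72 h in genes that this filter kept, 0 were lost.

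The call of Gmnn at 8 h was lost with offset 64, median centring, quantile normalization, the lungs of that time alone, or no air lungs numbered apart. With the next probe set it was lost too, though Gmnn has 1 probe set, so only other genes took other values. The dim filter removed Gmnn itself, so its call was not tested there. The count of members lower at 8 h was 0 to 1 with 1 lung left out. With untreated lungs it was 2, and 1 member was lower at 1 h and 1 at 4 h. The next probe set gave 1 member higher at 12 h. The chip letter as a replicate block, the day and the lot each gave 1 member higher at 24 h and 1 with a higher effect at 48 than 24 h. The replicate block and the lot each gave 2 members changing with time in air. Lower in air than untreated lungs were 1 member at 0.5 h with the day and 1 with the lot. At 12 h there were 1 with median centring, 1 with quantile normalization, 3 with the replicate block, 3 with the lot and 0 to 1 with 1 lung left out. At 24 h there was 1 with each of the 3 batch settings. At 48 h there were 0 to 1 with 1 lung left out and 0 with the next probe set, though Mcm5, the member called there, has 1 probe set. The dim filter removed Mcm5 itself. The cause was not tested, except that filters and left-out lungs leave fewer genes or samples. The replicate block moved no other count of members by over 1.5 times. Over all genes it called 449 higher at 72 h, against 270 without it.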
